A study of Homo sapiens with 6 samples.

Results

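The 8 genes described here are 6 metallothioneins (MT1E, MT1F, MT1G, MT1M, MT1X and MT2A), the zinc-sensing transcription factor MTF1 and the zinc exporter SLC30A1. They were taken by gene symbol from the authors' count table, which lists 20332 genes, and each of the 8 symbols matched 1 row. The RNA came from Huh-7 cells, an established human hepatocellular carcinoma line, of which 3 samples stably overexpressed RAC3, delivered by lentivirus, and 3 were the negative controls (controls), whose genotype is labelled WT. The comparison asks which transcripts differ when RAC3 is overexpressed. What the controls carried, and whether the stable line is 1 clone, is not given in the sources used here. The genotype labels of RAC3 samples 2 and 3 read RAC4 and RAC5 overexpression, while their titles give RAC3.

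Metallothioneins are small, cysteine-rich proteins of the cytosol that bind zinc and copper and buffer cadmium and other toxic metals, and the liver is a main site of their production. MTF1 binds free zinc through its zinc fingers and then activates genes that carry metal response elements in their promoters, among them the metallothioneins and SLC30A1. SLC30A1, also called ZnT1, sits in the plasma membrane and moves zinc out of the cell. Glucocorticoids and oxidative stress also induce metallothioneins. The human MT1 and MT2A genes lie side by side in a cluster on chromosome 16.

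In GENCODE release 29 (GRCh38), MT2A spans 56608199 to 56609497 of chromosome 16 and MT1X, at the other end of the member genes, spans 56682424 to 56684196, with MT1E (56625475 to 56627112), MT1M (56632233 to 56633986), MT1F (56657694 to 56660698) and MT1G (56666731 to 56668065) between them. MT1G is the member of the cluster that is read from the minus strand. MTF1 (37809567 to 37859620) and SLC30A1 (211571568 to 211578742) lie on chromosome 1, both on the minus strand, and MTF1 contains the pseudogene AL929472.4 on the other strand, whose reads an unstranded library cannot tell apart. The build behind the count table is not given in the sources used here, so these positions come from GENCODE by Ensembl identifier and not from the table.

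Promoter sequence is shown for the genes with the 2 clearest increases, MT2A and SLC30A1, and for MT1X, which by FPKM was the most abundant metallothionein after MT2A and did not pass the test. RefSeq start sites (GRCh38.p14) were at hand for 4 of the 8 members. The 250 bases before each start were searched for the core of the metal response element, TGCACNC or TGCGCNC on either strand. Sequences run 5′ to 3′ on the gene's strand, with the matches in capitals. GENCODE places the MT2A window inside the first exon of its longest transcript, so 3 of its matches are shown with 7 bases on each side, at chr16:56608424-56608444, chr16:56608489-56608509 and chr16:56608523-56608543 (plus strand). MT1X is shown up to its GENCODE start, chr16:56682220-56682423 (plus strand), and the SLC30A1 window is chr1:211579162-211579411 (minus strand).
MT2A, 153 bases before the start: agccgggTGCGCCCggcccag
MT2A, 88 bases before the start: gcggggcGTGTGCAggcagcg
MT2A, 54 bases before the start: gggctttTGCACTCgtcccgg
MT1X: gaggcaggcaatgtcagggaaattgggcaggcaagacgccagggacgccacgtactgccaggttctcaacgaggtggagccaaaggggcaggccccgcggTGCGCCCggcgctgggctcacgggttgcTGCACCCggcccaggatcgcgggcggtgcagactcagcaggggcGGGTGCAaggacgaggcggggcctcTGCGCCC
SLC30A1: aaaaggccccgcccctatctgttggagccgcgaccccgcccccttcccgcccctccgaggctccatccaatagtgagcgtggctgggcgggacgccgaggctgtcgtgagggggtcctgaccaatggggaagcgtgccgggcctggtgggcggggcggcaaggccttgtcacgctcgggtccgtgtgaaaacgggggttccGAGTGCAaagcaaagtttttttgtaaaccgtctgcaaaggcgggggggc

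The MT2A window held 7 matches to this core, the MT1X window 4, the SLC30A1 window 1 and the MTF1 window none. Of all 35116 RefSeq windows of this length, 24.8% held at least 1 match and 1.58% held 3 or more. MT1H and MT1B, metallothioneins with 0 counts in all 6 samples, held 8 and 3 matches, so the number of matches did not follow the RNA level in these cells. MT2A and MT1X also had a TATAAA match, which 10.7% of windows hold. MT2A had a match to the AP-1 motif TGANTCA, 104 bases before the start, which 6.57% of windows hold and which overlapped no metal response match. MT1B, with 0 counts, held a TATAAA and an AP-1 match as well, and MT1H held neither. The RefSeq start of SLC30A1 lies 419 bases upstream of the GENCODE gene start, so its window does not border the GENCODE start. A match is a description of the letters and not evidence that MTF1 binds there.

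**Figure D1:**
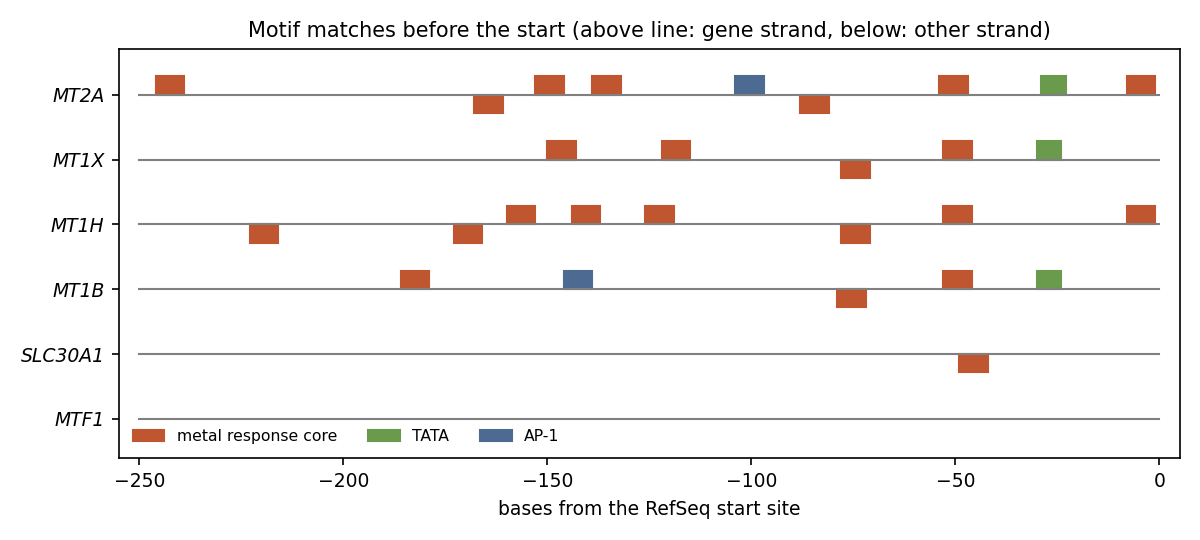
Matches to the metal response core (orange), TATAAA (green) and the AP-1 motif (blue) in the 250 bases before the RefSeq start of 4 members and of MT1H and MT1B, which had 0 counts; the horizontal axis gives bases from the start. Boxes above a line are on the gene's strand and boxes below it on the other strand; MT2A carries 7 metal response matches, MT1X 4, SLC30A1 1 and MTF1 none.

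Total counts on genes lay between 13855762 and 18199888 per sample, and levels are given as CPM, a gene's count scaled to a common library size with edgeR's TMM factors, unless FPKM, the authors' length-scaled unit, is named. A count of 0 allows up to 3 counts, between 0.167 and 0.215 CPM here, for counting error only. RAC3 itself was between 31.4 and 35.6 CPM in the controls and between 225.4 and 239.6 CPM in the RAC3 samples, including samples 2 and 3. All 10 hepatocyte markers were detected in both groups, and 3 rose, 3 fell and 4 did not pass, where 13.3% of all genes tested rose and 15.3% fell. FGB, APOB and AFP had log2 fold changes of 0.30, 0.20 and 0.16 (0.13, 0.06 and -0.05 with the GC trend removed, where APOB and AFP did not pass; AFP also missed without negative control replicate 2, at an adjusted p of 0.0504 in edgeR), while APOA2, TF and TTR had -0.58, -0.56 and -0.26. The summed endothelial markers lay between 2.53 and 3.15 CPM in the controls and between 2.70 and 3.76 CPM in the RAC3 samples, the leukocyte markers between 43.3 and 50.7 CPM and between 40.9 and 42.1 CPM, most of them from CD14, and the fibroblast markers between 233 and 249 CPM and between 272 and 285 CPM, mostly from LUM. Of the 4 endothelial, 5 leukocyte and 6 fibroblast markers, 1, 3 and 5 were tested. Among the fibroblast genes COL1A2 (log2 fold change 0.51) and LUM (0.22, but -0.01 with the GC trend removed) were higher with RAC3 and COL1A1 (-0.22, a call lost under 8 of 18 alternatives, among them those without negative control replicate 1 or 3 and without RAC3 overexpression replicate 1 or 3, with adjusted p-values in edgeR up to 0.0737) was lower. PDGFRB, at a mean of 36.8 counts per sample, had the largest value of that list, -0.71 (adjusted p = 0.0573 in edgeR), and passed the study's thresholds. The leukocyte genes CD68 and CD14 had 0.47 (a call lost under 5 of 18 alternatives, among them those without negative control replicate 3 and without RAC3 overexpression replicate 1 or 2, with adjusted p-values in edgeR up to 0.193) and -0.37. PTPRC, VWF, CDH5 and KDR had means of 4.67 or fewer counts per sample, and KDR was at 0 in all controls. The RNA came from the Huh-7 line and not from tissue, so these levels are not read as shares of cell types. Whether other cells were present was not tested, and bulk RNA cannot tell cell number from RNA per cell. The labels do not say whether the 3 samples of a group came from separate cultures, so p-values measure the spread between these samples, although the methods of the study call the RNA samples independent.

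Of the 8 members, 7 had enough counts to be tested and MT1M did not. SLC30A1 and MT2A rose with RAC3 overexpression, by 1.46-fold and 1.35-fold, and no member fell. The 2 members called are 2 of 7 tested, while at the same threshold (an adjusted p below 0.05, Benjamini-Hochberg over 12941 genes, in the edgeR quasi-likelihood test) 28.5% of all genes tested were called, 13.3% as higher and 15.3% as lower. That split depended on the scaling, with 2613 genes higher and 1381 lower by library size alone, against 1717 and 1974 here. The share of members called in either direction was thus close to that of all genes. None of the 7 passed the study's thresholds, a fold change above 1.5 in either direction with an unadjusted p below 0.05, which 4.68% of genes tested did in edgeR, 1.68% as higher and 2.99% as lower. The groups did not overlap for 3 members, all higher with RAC3, and for 42.5% of all genes tested, 20.9% with RAC3 above and 21.6% with RAC3 below. At an unadjusted p below 0.05 alone, 3 members were called (SLC30A1, MT2A and MTF1), all higher, against 39.2% of all genes tested in either direction and 19% as higher. Limma-voom, DESeq2 and the exact test of edgeR also put 0 members past the study's thresholds. The median log2 fold change of the 7 was 0.21, against 0.00 over all genes tested.

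**Figure D2:**
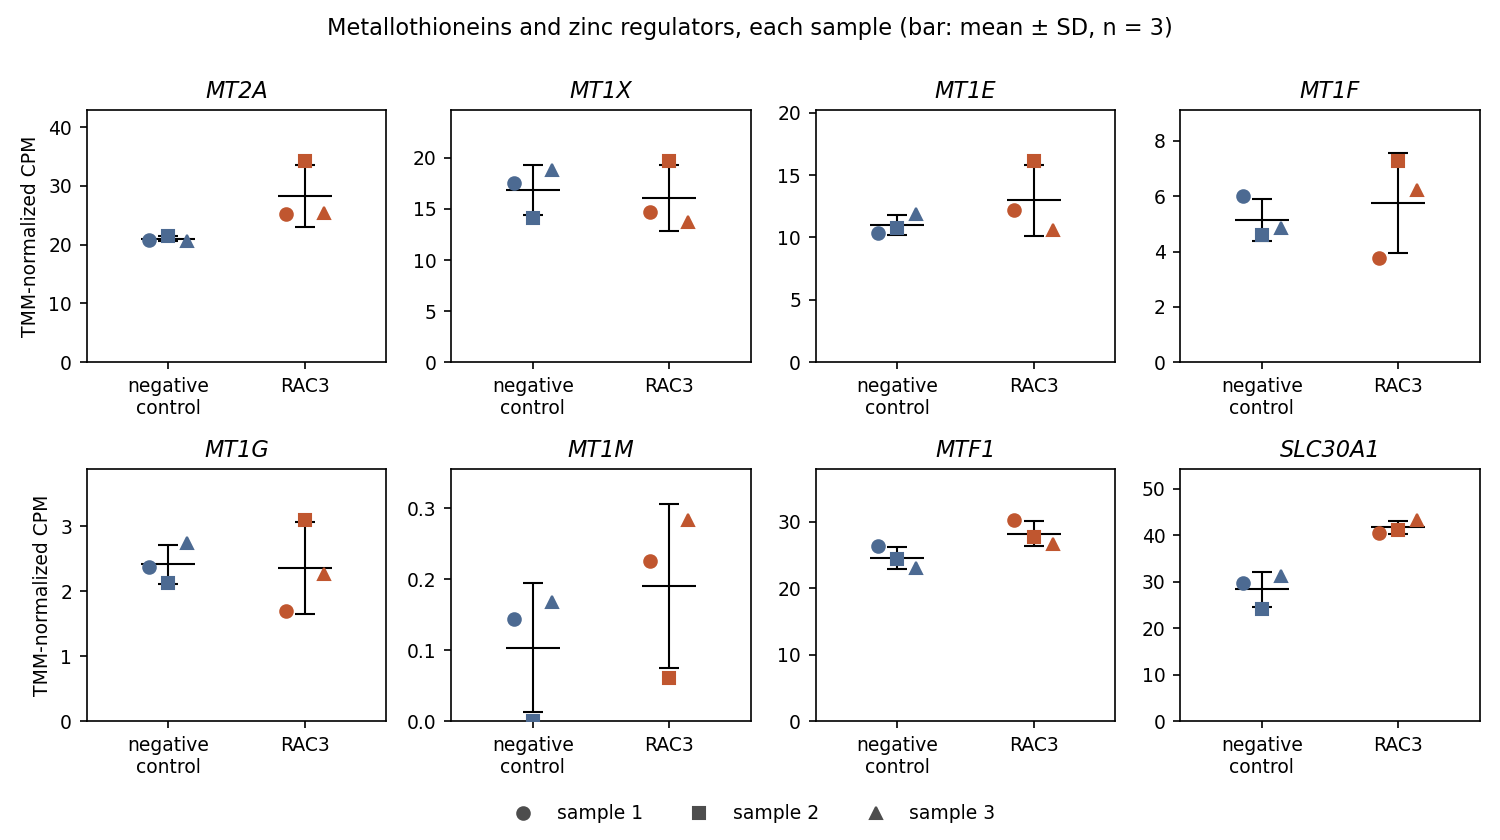
TMM-normalized CPM of the 8 genes in each of the 6 samples (circle, sample 1; square, sample 2; triangle, sample 3), with the mean and SD of each group of 3. The RAC3 samples of SLC30A1, MT2A and MTF1 lie above all negative controls, whereas the groups overlap for the MT1 genes.

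SLC30A1 (ENSG00000170385), the zinc exporter, had the clearest increase. It was at 29.7, 24.2 and 31.3 CPM in negative controls 1, 2 and 3 and at 40.6, 41.1 and 43.3 CPM in RAC3 samples 1, 2 and 3, in that order here and in later lists. All RAC3 samples lay above all negative controls, with a gap of 9.29 CPM between the groups, and the RAC3 samples were close to each other. The mean rose from 28.4 ± 3.74 to 41.7 ± 1.46 CPM (SD, n = 3 in each group). Its log2 fold change was 0.55 ± 0.0848 (SE), with an adjusted p of 8.96e-05 in edgeR's quasi-likelihood test. Its 95% interval ran from 1.29-fold to 1.65-fold. The transcript has 38.0% GC, and with each library's trend with transcript GC removed the log2 fold change was 0.33 (edgeR adjusted p = 0.00888). It stayed between 0.44 and 0.62 when each sample was left out in turn.

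MTF1 (ENSG00000188786), the zinc-sensing activator of the other members, was at 26.4, 24.4 and 23.0 CPM in the controls and at 30.3, 27.7 and 26.7 CPM in the RAC3 samples. The groups did not overlap, but only 0.376 CPM separated the lowest RAC3 sample from the highest negative control. The log2 fold change was 0.21 (standard error 0.0837) with a 95% interval from 0.03 to 0.38, and the adjusted p of 0.0721 in edgeR's quasi-likelihood test missed the threshold. With library size alone as the scaling, the value was 0.26 (adjusted p = 0.0222 in edgeR), and without negative control replicate 1 it was 0.25 (adjusted p = 0.0464 in edgeR). Removing each library's GC trend gave 0.12 and removing its length trend 0.09, with adjusted p-values in edgeR of 0.322 and 0.43.

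MT2A (ENSG00000125148) was the most abundant metallothionein by FPKM and the single family member that rose past the threshold. Its level was 20.8, 21.4 and 20.7 CPM in the controls, with the smallest spread relative to the mean of any member (coefficient of variation 1.90%), and 25.2, 34.3 and 25.3 CPM in the RAC3 samples. Every RAC3 sample was above every negative control, and RAC3 sample 2 stood well above the other two. The mean went from 21.0 ± 0.399 to 28.3 ± 5.24 CPM (SD, n = 3 in each group), which gave a log2 fold change of 0.43 ± 0.106 (SE) and an adjusted p of 0.00476 in edgeR's quasi-likelihood test. Without RAC3 overexpression replicate 2 the log2 fold change was 0.27 (edgeR adjusted p = 0.0393), so the call did not rest on this sample but the size did in part. Removing the GC trend or the length trend gave 0.46 and 0.45. The GC value used was that of a transcript longer than the length implied by the authors' counts and FPKM.

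The MT1 genes did not pass the test, and their values spread in both groups. MT1X (ENSG00000187193) was at 17.6, 14.1 and 18.8 CPM in the controls and at 14.7, 19.7 and 13.7 CPM in the RAC3 samples, so the groups fully overlapped. The log2 fold change of MT1X was -0.07 ± 0.132 (SE), with an adjusted p of 0.732 in edgeR and a 95% interval from 0.786-fold to 1.15-fold, below the 1.35-fold of MT2A. MT1E (ENSG00000169715) was at 10.4, 10.7 and 11.9 CPM in the controls and at 12.2, 16.2 and 10.6 CPM in the RAC3 samples. Here the third RAC3 sample fell within the control range, and the log2 fold change of 0.24 (standard error 0.141) had an adjusted p of 0.222 in edgeR. Without RAC3 overexpression replicate 2, the value for MT1E was 0.05.

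MT1F (ENSG00000198417) lay between 4.59 and 6.02 CPM in the controls and between 3.77 and 7.29 CPM in the RAC3 samples, and MT1G (ENSG00000125144) between 2.13 and 2.73 CPM and between 1.69 and 3.10 CPM. In both genes the lowest and the highest sample of all 6 were RAC3 samples. Their log2 fold changes were 0.16 and -0.04, with standard errors of 0.216 and 0.279 and 95% intervals from 0.817-fold to 1.53-fold and from 0.647-fold to 1.45-fold. At means of 85.8 and 37.8 counts per sample, these intervals hold both no change and the 1.35-fold of MT2A. The direction of MT1F turned without RAC3 overexpression replicate 2, to -0.056, and that of MT1G turned with library size scaling and with the GC trend removed, at 0.011 and 0.016. MT1M (ENSG00000205364) had 2, 0 and 3 counts in the controls against 4, 1 and 4 with RAC3. Summed over samples and scaled for depth this is a ratio of 1.75, with an exact 95% interval for counting error from 0.526 to 6.64, which does not settle a direction.

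**Figure D3:**
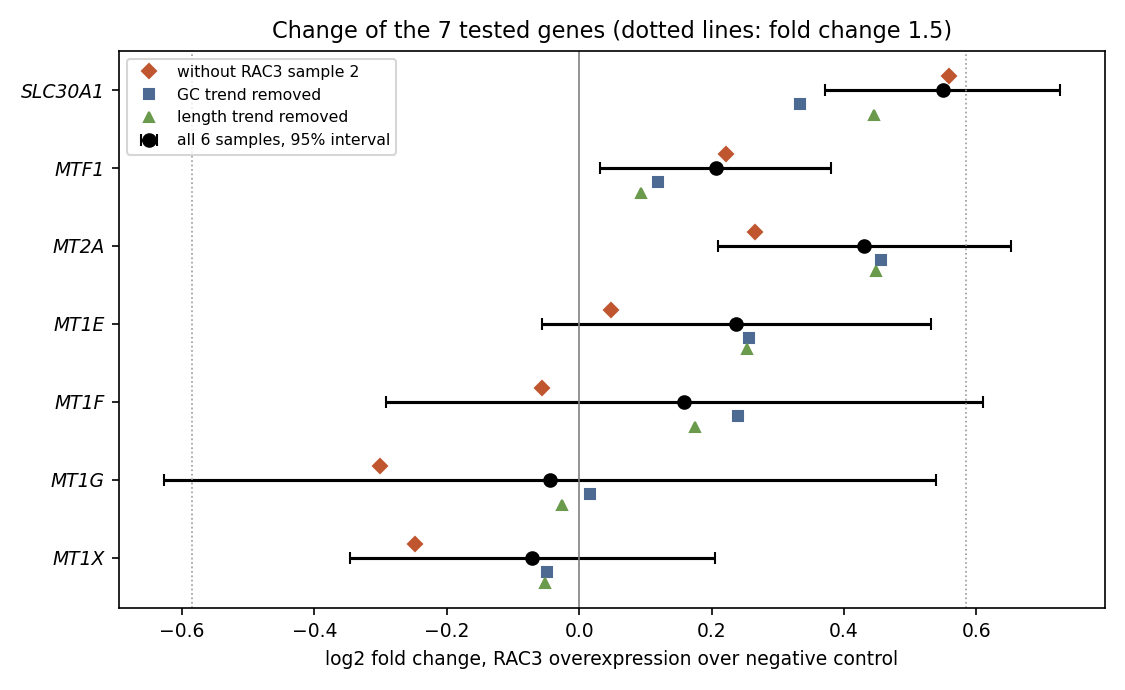
Log2 fold change of the 7 tested genes (RAC3 overexpression over negative control, n = 3 per group) with its 95% interval, and the same value without RAC3 sample 2 (diamonds) and after removal of the GC trend (squares) or the length trend (triangles). The dotted lines mark a fold change of 1.5. MT2A falls from 0.43 to 0.27 without RAC3 sample 2, and SLC30A1 from 0.55 to 0.33 with the GC trend removed.

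RAC3 sample 2 was the highest of the 6 samples for all 5 tested metallothioneins, a point seen in the values and not planned. Relative to the mean of RAC3 samples 1 and 3 on the log2 scale, it was higher by 1.35-fold for MT2A, 1.38-fold for MT1X, 1.41-fold for MT1E, 1.45-fold for MT1F and 1.46-fold for MT1G. For SLC30A1 and MTF1 the same ratio was 0.981 and 0.973, and its median over all genes tested was 0.998. The 5 metallothioneins thus stood high together in a library whose MTF1 and SLC30A1 lay within the range of the other RAC3 samples. The peak was not particular to metallothioneins. Named after their values were seen, ATOX1 was at 22.3, 28.8 and 21.2 CPM and APOA1 at 9.23, 12.1 and 9.58 CPM in the RAC3 samples. SLC30A7 was instead lower in RAC3 sample 2, at 72.7, 64.6 and 71.4 CPM. How many genes shared either pattern was not counted. The summed level of the 6 metallothioneins was 57.3, 53.0 and 59.2 CPM in the controls and 57.7, 80.6 and 58.4 CPM in the RAC3 samples. Apart from RAC3 sample 2, the RAC3 sums lay within the control range. In FPKM the sums were 127.7, 118.2 and 132.4 in the controls and 134.2, 185.7 and 137.0 with RAC3, so that on this scale the groups just separated. Paralogs can share reads: of all 50-base windows of the longest coding transcript, between 3.59% (MT1F) and 14.3% (MT1G) of those of MT1E, MT1F, MT1G, MT1M and MT2A also occur in transcripts of other genes, mainly other metallothioneins and their pseudogenes, and none of 100 bases do. For the MT1X transcript searched the shares were 55.8% and 50.8%, all with AC026461.1. AC026461.1 is an overlapping transcript on the same strand that has no row in the count table. Some 50-base windows of MT1F, MT1G, MT1M and MT2A did occur in other MT1X transcripts, so MT1X can share reads with these paralogs too. The transcripts searched were longer than the lengths implied by the authors' counts and FPKM, for MT2A 786 against 401 bases and for MT1G 628 against 409. The shares within the sequence that was counted were not computed and can be higher.

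**Figure D4:**
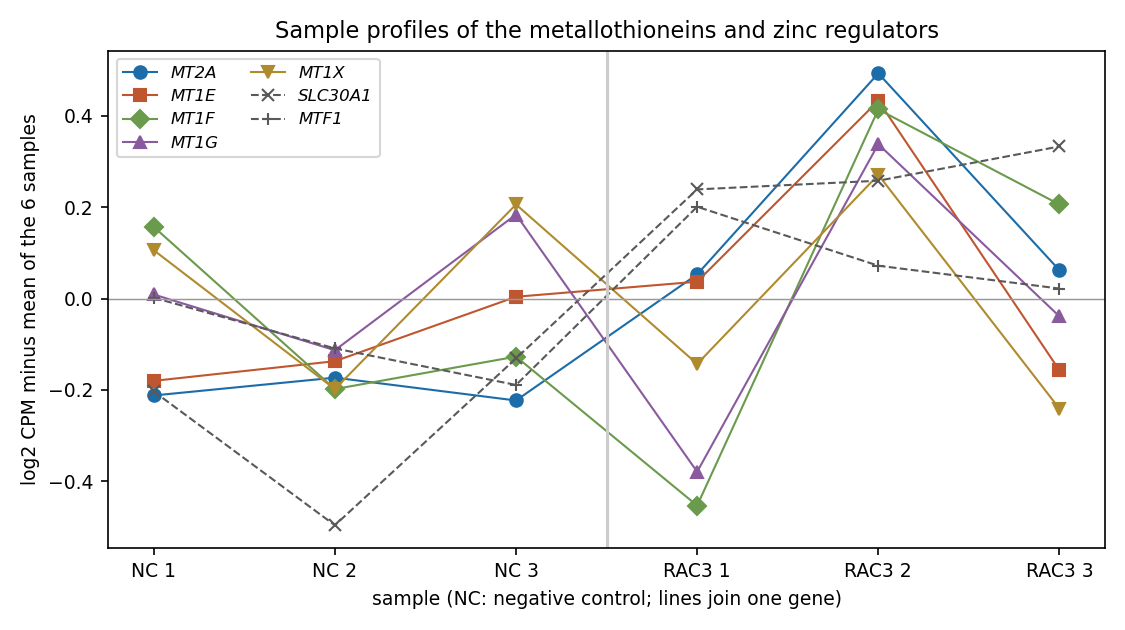
Log2 CPM of 7 members in each sample, relative to each gene's own mean over the 6 samples; solid lines are metallothioneins and dashed lines SLC30A1 and MTF1. The 5 metallothioneins peak together in RAC3 sample 2, between 0.27 and 0.49, while SLC30A1 is at 0.26 and MTF1 at 0.07 there.

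Levels of different genes were compared in FPKM, which scales by length. In the negative controls the order was MT2A (51.3 ± 1.12), MT1X (40.8 ± 5.96), MT1E (16.1 ± 1.17), MT1F (11.9 ± 1.66), MT1G (5.77 ± 0.741), SLC30A1 (4.72 ± 0.618), MTF1 (3.04 ± 0.184) and MT1M (0.255 ± 0.223), each as mean FPKM ± SD with n = 3. MT1G and SLC30A1 were the neighbours in this order whose samples overlapped. In the RAC3 samples MT2A was at 71.8 ± 13.0 FPKM and MT1X at 40.3 ± 7.96 FPKM (SD, n = 3), and the samples of MT1E and MT1F, and those of SLC30A1 and MT1G, overlapped. MT2A made up 39.6%, 44.5% and 38.4% of the summed metallothionein FPKM in the controls and 47.9%, 46.8% and 46.9% in the RAC3 samples. The ratio of MT2A to MT1X in FPKM was 1.20, 1.53 and 1.11 in the controls and 1.73, 1.76 and 1.87 in the RAC3 samples. These ratios did not overlap (exact permutation test on the log2 ratio, two-sided p = 0.1, the smallest that 3 against 3 samples allow), and the pair was chosen after the values were seen. RAC3 sample 2 did not stand apart in this ratio. The lengths implied by the authors' counts and FPKM were between 398 and 666 bases for the metallothioneins, which are among the shortest 2.0% of the genes tested, against a median of 2700 bases.

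The other metallothionein genes added little. Of 15 other metallothionein genes and pseudogenes listed, 6 had a row in the count table and 5 of these (MT1B, MT1H, MT1HL1, MT3 and MT4) had 0 counts in all samples. MT1A was between 0.781 and 1.40 CPM in the controls and between 0.957 and 1.46 CPM in the RAC3 samples, and its log2 fold change was 0.05 ± 0.374 (SE; edgeR adjusted p = 0.935).

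Most members of the SLC30 (ZnT) family move zinc out of the cytosol. Among the 9 other members listed, 7 were tested, 2 rose and none fell, and their median log2 fold change was 0.20. The share called in either direction was close to the 28.5% of all genes tested, where 13.3% were called as higher and 15.3% as lower. SLC30A6 was at 38.6, 37.4 and 36.5 CPM in the controls and at 48.7, 49.0 and 46.3 CPM in the RAC3 samples, a log2 fold change of 0.36 ± 0.065 (SE; edgeR adjusted p = 0.000425). SLC30A7, which loads zinc into the Golgi, went from 57.8 ± 3.61 to 69.5 ± 4.35 CPM (SD, n = 3), with a log2 fold change of 0.26 (adjusted p = 0.00472 in edgeR). Both calls were lost with the GC trend removed, at log2 fold changes of 0.14 and 0.03 (edgeR adjusted p = 0.146 and 0.7), whereas the call for SLC30A1 was kept. SLC30A7 also missed with the length trend removed (log2 fold change 0.15, edgeR adjusted p = 0.0595).

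Among the SLC39 (ZIP) family, which brings zinc into the cytosol, 12 of 14 were tested, 2 rose, 4 fell and 6 did not pass, with a median log2 fold change of 0.07. Of all genes tested, 13.3% rose and 15.3% fell. SLC39A5, an importer made in liver, pancreas and intestine, fell from 43.8, 37.2 and 36.4 CPM in the controls to 27.6, 29.1 and 30.6 CPM in the RAC3 samples. All its RAC3 samples lay below all negative controls, and its log2 fold change of -0.42 ± 0.0814 (SE; edgeR adjusted p = 0.000708) kept its call under all 18 alternatives, where it lay between -0.48 and -0.29. SLC39A3, SLC39A13 and SLC39A1 had log2 fold changes of -0.25, -0.33 and -0.16. SLC39A9 and SLC39A14, the latter also an iron carrier, were at 0.18 and 0.12. With the GC trend removed, SLC39A1, SLC39A9, SLC39A13 and SLC39A14 no longer passed (edgeR adjusted p = 0.134, 0.582, 0.192 and 0.401), and SLC39A3 did not pass with limma on the FPKM (log2 fold change -0.07, adjusted p = 0.399). SLC39A9 and SLC39A14 also missed with the length trend removed (edgeR adjusted p = 0.24 and 0.714), and the call for SLC39A14 was lost under 8 of the 18 alternatives. Leaving out single samples also ended calls, up to adjusted p-values in edgeR of 0.103 for SLC39A1 (without RAC3 overexpression replicate 1), 0.0795 for SLC39A9 (without RAC3 overexpression replicate 3), 0.131 for SLC39A13 (without negative control replicate 3) and 0.189 for SLC39A14 (without negative control replicate 2). No gene of either transporter list passed the study's fold threshold.

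**Figure D5:**
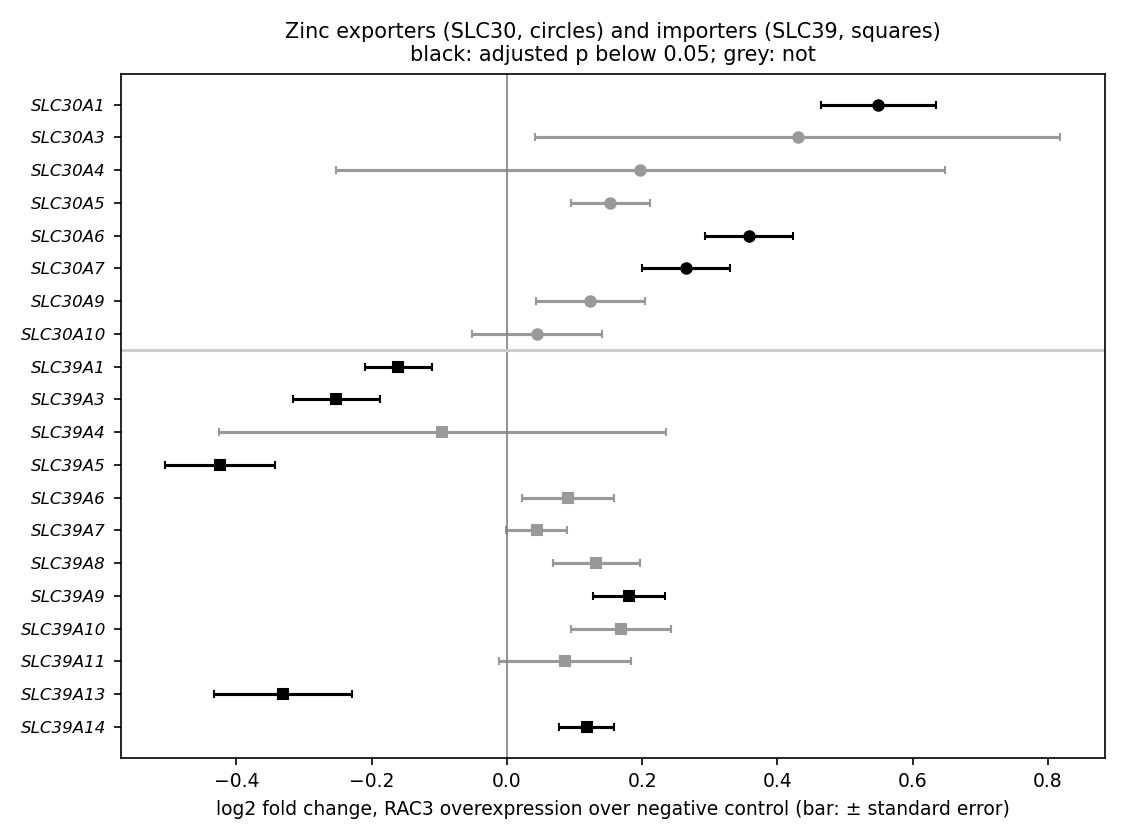
Log2 fold change of the tested genes of the SLC30 family (circles, with SLC30A1 on top) and the SLC39 family (squares), RAC3 overexpression over negative control, with the standard error. Black symbols have an adjusted p below 0.05 and grey symbols do not. SLC30A1 at 0.55 is the highest value shown and SLC39A5 at -0.42 the lowest.

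The genes whose sample profile was most like that of the well-counted metallothioneins were not zinc genes. The mean profile of MT1E, MT1F, MT1X and MT2A over the 6 samples (log2 CPM relative to each gene's mean) was -0.03, -0.18 and -0.04 in the controls and -0.13, 0.40 and -0.03 in the RAC3 samples. Among 11217 other genes with a mean of at least 50 counts, the 5 nearest by root mean square difference were ZSCAN21, PARS2, CDK18, SPINK1 and MTFMT, at 0.06 to 0.07, and the median gene was at 0.22. SPINK1 encodes a secreted trypsin inhibitor, PARS2 and MTFMT act on mitochondrial transfer RNAs, CDK18 is a cyclin-dependent kinase and ZSCAN21 a zinc finger protein. MTF1 was at 0.20 and SLC30A1 at 0.27, ranks 3946 and 8548, so neither regulator was among the nearest profiles. MTF1 was still little farther than MT1F (0.19), which is itself part of the mean. The 4 metallothioneins themselves were at 0.11 to 0.19 from their own mean, and over 6 samples with so many genes a near profile is a description only.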

How the data were processed

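RNA of 6 Huh-7 samples (3 negative control, 3 RAC3 overexpression) was sequenced after poly(A) selection with an unstranded kit. The authors deposited raw counts per gene and FPKM per sample, with the mean FPKM of each group, which was not used. The submitters' processing notes name Bowtie2 2.2.8, HISAT2, StringTie 1.3.1 and DESeq2. Which build and gene lengths were used is not given in the sources used here. Samples were grouped by title.

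In R 4.3.3, the counts were tested with edgeR 4.0.16 (filterByExpr, TMM, quasi-likelihood F test, two-sided, no covariate, Benjamini-Hochberg over 12941 genes), and a fold change of 1.5 with p below 0.05 was the study's threshold. FPKM served for levels between genes. Total counts were between 13855762 and 18199888. The steps were tested on simulated data. Replicates differed by more than sampling noise, with a mean chi-square per gene between 2.52 and 5.61. Named were all 8 members, MT1A, the genes of fixed lists with an adjusted p below 0.05 (at most 5 per direction) or past the study's thresholds, and the 5 nearest profiles. The members and lists, written from general knowledge, were chosen with earlier results of these data known. The alternatives were other scalings (DESeq2 size factors, upper quartile, library size), limma-voom (limma 3.58.1), DESeq2 1.42.0, the exact test of edgeR, limma on log2(FPKM + 0.1), 2 other filters, a replicate block, length and GC trends removed (lowess span 0.3) and each sample left out; for genes that are not members they were added after the values were seen. GC values came from the longest transcript of each gene in GENCODE release 29, for 12863 genes. For the metallothioneins this transcript was longer than the length implied by the authors' counts and FPKM. Their GC correction thus rests in part on sequence that may not have been counted.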

Additional observations from a re-analysis of the deposited data

How the results depend on the processing

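Under 18 alternatives, SLC30A1 and MT2A kept an adjusted p below 0.05 and their direction in each, with log2 fold changes between 0.33 and 0.62 and between 0.27 and 0.51. MTF1 stayed above 0, between 0.09 and 0.26, and passed in 2 of them, with library size scaling and without negative control replicate 1. MT1E did not pass in any, between 0.05 and 0.36. The number of members with an adjusted p below 0.05 was 2, and 2 to 3 with each sample left out. Past the study's thresholds it was 0, and 1 (SLC30A1) with library size scaling, 1 (SLC30A1) with limma on log2(FPKM + 0.1), and from 0 to 1 with each sample left out (SLC30A1 without negative control replicate 3). The log2 fold change of MT1G, reported as -0.04, turned to 0.011 with library size scaling and to 0.016 with the GC trend removed, and lay between -0.30 and 0.16 with each sample left out. In the same fits MT1F lay between -0.056 and 0.40 and MT1X between -0.25 and 0.025. None of these passed the threshold, and the cause was not tested. Of all genes tested, 3691 were called (1717 higher and 1974 lower). Library size scaling called 2613 higher and 1381 lower, limma on the FPKM 1304 and 858 (2162 in all), the length correction 1064 and 2671 and the GC correction 702 and 2153, and these moved the median log2 fold change of all genes to 0.06, 0.05, -0.05 and -0.05. With the replicate number as a replicate block, 2 members passed and 0 passed the study's thresholds. Same-numbered samples did not deviate together (correlations of -0.094, -0.049 and -0.023 across 11221 genes), and no sample correlated best with its own number. These are deviations from group means of 3 samples, which depend on each other, so the check cannot settle whether same-numbered samples shared a batch. Among marker genes AFP turned to -0.047 and LUM to -0.0095 with the GC trend removed. Precision was limited by depth for MT1G and MT1M, at means of 37.8 and 2.33 counts per sample.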

Other observations

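Further gene lists bear on other inducers and partners of metallothioneins. Of 10 genes induced by metals and oxidative stress, 3 rose and 4 fell, where 13.3% of all genes tested rose and 15.3% fell. The heat shock genes HSPA1A and HSPA1B, near-identical copies whose reads can be split in counting, fell by 0.58 and 0.67 on the log2 scale, and HSPA1B was the single gene of the list past the study's thresholds, at 161.1 ± 5.30 CPM in the RAC3 samples against 255.9 ± 14.9 CPM in the controls (SD, n = 3 per group). The co-chaperone DNAJB1 and the quinone reductase NQO1 also fell, by 0.28 and 0.21. The glutathione synthesis genes GCLC and GCLM and the thioredoxin reductase TXNRD1 rose, with log2 fold changes of 0.25, 0.26 and 0.25, and of these TXNRD1 kept its call with the GC trend removed (0.13, adjusted p = 0.0176 in edgeR) and GCLC and GCLM did not (0.13 and 0.04, adjusted p = 0.238 and 0.669 in edgeR). HMOX1, a common reporter of metal stress named after its values were seen, had a log2 fold change of -0.15 (adjusted p = 0.21 in edgeR).

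Of 9 genes that are induced by glucocorticoids or encode their receptor, 2 rose and none fell. Among all genes tested 28.5% were called, 13.3% as higher and 15.3% as lower. The 7 that did not pass had log2 fold changes between -0.51 and 0.18, and the median of the list was 0.04. KLF9 rose from 26.6 ± 0.742 to 36.1 ± 2.16 CPM (SD, n = 3 per group), with a log2 fold change of 0.44 (adjusted p = 0.000237 in edgeR), and the receptor NR3C1 had 0.27 (adjusted p = 0.000662 in edgeR, and 0.326 with the GC trend removed). KLF9 kept its call under all 18 alternatives. Of 12 copper handling genes, which share metallothionein as a copper store, none rose and 2 fell. Of all genes tested, 13.3% rose and 15.3% fell. The 2 that fell were the copper importer SLC31A1 and the copper exporter ATP7B, with log2 fold changes of -0.15 and -0.21 (adjusted p = 0.0256 and 0.0123 in edgeR). These calls were lost under 5 and 4 of the 18 alternatives, among them those without negative control replicate 1 (edgeR adjusted p = 0.0633 and 0.0518) and without RAC3 overexpression replicate 3 (0.136 and 0.0587). GCLC was lost under 6, with an edgeR adjusted p of up to 0.133 with a sample left out, without negative control replicate 3.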
